A study of Mus musculus with 15 samples.

Results

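Hippocampal transcript levels of mice sampled 1 h after a first extinction trial (E1, 5 arrays) were compared with those of control mice (5 arrays). Arrays were assigned to these groups by their titles, and together they make up 10 of the 15 arrays of the series. All mice were male C57BL/6J, an inbred strain. The E1 mice had received a footshock in a conditioning box and were then put back into the box once without a shock. Control mice are called naive in the sample names, whereas the design text has them exposed to the box but never shocked. Age, and the time from the last handling of a control mouse to RNA isolation, are not given in the labels. The other 5 arrays come from mice 1 h after trial 5, the low-freezing trial (ELF), with trials 24 h apart. The labels call the 5 samples of a group biological replicates and do not say whether a sample is 1 mouse, so p-values measure the spread between these samples.

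Contextual fear extinction is the learning by which an animal comes to freeze less in a place where a shock no longer follows, and it depends on the hippocampus. When neurons there are strongly active, calcium and growth factor signals act on transcription factors that are already present, such as CREB and SRF, and these switch on immediate early genes within minutes. Some early genes encode transcription factors, others act at the synapse, and others switch the signal off again. Stress during such a trial also releases glucocorticoids, hormones whose receptor is itself a transcription factor.

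The arrays lay on slides of up to 4, read from the array identifiers. Slide 1 held controls 1 to 4. Slide 2 held control 5 and E1 replicates 1 to 3. Slide 3 held E1 replicates 4 and 5 with 2 ELF arrays, so slide 2 alone held both groups, with 1 control array. All arrays were scanned on 1 day. On the 10 arrays the 75th percentile of the processed intensity lay between 1441 and 2457, and 85.2% to 93.1% of spots were well above background. The 8 markers of hippocampal neurons found under their own symbol were above background on all 10 arrays, and none was called. Another chosen marker, Spink8, is on the arrays as C630041L24Rik and was not called either. Below, a level is the log2 processed intensity relative to the array's own 75th percentile, and a difference is the E1 mean minus the control mean of such levels. Adjusted p-values are from limma with Benjamini-Hochberg adjustment over 26121 genes, and a gene rose or fell if its adjusted p was under 0.05.

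After the first extinction trial, 49 of 26121 genes were called (0.188%). Of these 35 rose (0.134%) and 14 fell (0.0536%), so 71.4% of calls were higher in E1, against 82.7% with quantile normalization and 86.7% with the array median as the shift. Immediate early genes and some very dim transcripts were among those that rose, and endothelial and chemokine genes among those that fell. The median difference over all genes was 0.04, and 58.8% of genes had a difference above 0. The E1 and control arrays did not overlap for 30 of the 35 genes that rose and for all 14 that fell. Among all genes, 2.11% had all 5 E1 arrays above the controls and 1.62% had them all below.

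How many genes were called turned on single arrays. Without control 1 to 4 the count was 14, 8, 12 and 16 in that order, and without control 5 it was 1120 (923 rose, 3.53%, and 197 fell, 0.754%). Without E1 replicates 1 to 5 it was 22, 41, 14, 15 and 14. The ELF arrays share in the estimate of the spread, and without ELF 1 to 5 the count was 22, 60, 27, 166 and 21. Of the 49 genes themselves, 14, 8, 12, 15 and 49 stayed called without control 1 to 5, 21, 35, 14, 15 and 14 without E1 1 to 5, and 22, 44, 27, 49 and 21 without ELF 1 to 5. With normexp background correction 21 of the 49 stayed called, with the mean over a gene's probes 35, and in a fit of the 10 arrays alone 24. Those that passed in every one of the 15 fits without 1 array were Cxcl5, Ccl3, Sox18, Arc, Dusp1, Axud1, Dyrk3 and AK030494. Of these Ccl3 lost its call with normexp, Axud1 with the mean over its probes and Dyrk3 with the median as the shift. Arc and Dusp1 lost theirs with position on the slide as a block (adjusted p = 0.0601 and 0.0761). With slide as a fixed block, a fit that draws the difference from slide 2 alone, 3 genes were called and none was among the 49, although all 47 that could be fitted kept their sign. A block for the replicate number left 9 of the 49 called in the fit of 15 arrays, and all 49 among 3203 called genes in the fit of the 10 arrays. The labels give no such pairing, and the block was fitted because of correlations in these same data.

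Promoter windows of early genes are shown first, because the cyclic AMP response element (CRE), the site to which CREB binds, is a known feature of this gene class. Each window holds the 250 bases before the outermost annotated start, from RefSeq, build GRCm38.p6, read 5′ to 3′ in the direction of the gene. Capitals mark the CRE half-site TGACG on either strand, which reads CGTCA on the opposite strand. In a full CRE, TGACGTCA, both half-sites overlap and were counted as 2. The Fos window is chr12:85473640-85473889 (plus strand), with half-sites that begin 129 and 66 bases before the start. The Junb window is chr8:84978749-84978998 (minus strand), with 1 half-site at 106 bases. The Axud1 window is chr9:119984743-119984992 (minus strand), with 1 half-site at 142 bases. The Dusp1 window is chr17:26508473-26508722 (minus strand) and holds a full CRE beside another half-site. Ch25h, a gene on none of the early lists, also rose, and its window chr19:34475149-34475398 (minus strand) holds a full CRE.
Fos: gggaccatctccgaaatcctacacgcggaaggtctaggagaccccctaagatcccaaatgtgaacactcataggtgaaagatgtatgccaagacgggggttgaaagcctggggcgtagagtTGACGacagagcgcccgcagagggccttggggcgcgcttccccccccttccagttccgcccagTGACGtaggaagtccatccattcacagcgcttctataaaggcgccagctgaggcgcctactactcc
Junb: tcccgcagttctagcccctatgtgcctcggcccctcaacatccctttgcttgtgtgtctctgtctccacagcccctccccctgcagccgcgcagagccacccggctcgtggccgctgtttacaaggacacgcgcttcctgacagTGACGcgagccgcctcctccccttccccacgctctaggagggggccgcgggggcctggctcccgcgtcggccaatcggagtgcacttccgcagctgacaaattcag
Axud1: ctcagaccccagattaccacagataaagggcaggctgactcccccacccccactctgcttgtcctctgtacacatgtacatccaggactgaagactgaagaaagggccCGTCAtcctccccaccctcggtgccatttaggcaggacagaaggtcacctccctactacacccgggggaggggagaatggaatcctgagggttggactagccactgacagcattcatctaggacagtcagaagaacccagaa
Dusp1: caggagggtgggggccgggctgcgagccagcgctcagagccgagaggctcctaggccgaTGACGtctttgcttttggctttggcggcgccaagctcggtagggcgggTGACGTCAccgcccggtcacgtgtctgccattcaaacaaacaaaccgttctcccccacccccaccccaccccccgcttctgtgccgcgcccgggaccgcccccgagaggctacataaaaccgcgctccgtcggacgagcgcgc
Ch25h: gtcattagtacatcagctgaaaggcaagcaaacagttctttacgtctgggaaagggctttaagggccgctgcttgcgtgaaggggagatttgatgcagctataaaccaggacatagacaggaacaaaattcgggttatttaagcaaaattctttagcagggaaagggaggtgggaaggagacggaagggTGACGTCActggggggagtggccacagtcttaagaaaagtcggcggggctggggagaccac

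Windows were found for 26 of the genes that rose, and genes with several annotated starts had several windows, 34 in all. A half-site lay in at least 1 window of 13 of the 26 genes, and a full CRE in 3 (Dusp1, Ch25h and Mettl4). Among 32851 windows of all genes, 17.8% held a half-site and 1.55% a full CRE. That share is per window and the count is per gene, so they are not on equal terms. All 6 early genes with a window had a half-site in at least 1 window, and of 7 genes that fell and had a window 1 did (Ebf3). Egr2 and Axud1 had several windows each, and not all of those of Egr2 held a half-site. The 7 genes that fell had 7 windows in all, so these counts are not on equal terms either. No window was found for the early genes Arc, Ier2 and Trib1. A CArG box, the site of SRF, lay in windows of 1 gene that rose (Egr2), against 1.47% of all windows, and an AP-1 site (TGAGTCA or TGACTCA) in those of 2 genes, against 4.46%. These are matches of letters and do not show binding.

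The gene lists used from here on were chosen with earlier results of these data known. No count or median of a list set against all genes is free of that choice. Early genes were described over 3 lists with 73 measured genes, of which 9 rose, none fell and 64 did not pass. Of all genes 0.134% rose. By role, 6 of 32 transcription factors, 2 of 26 effectors and 1 of 15 feedback regulators rose. The median difference was 0.20, against 0.04 for all genes, and 60 of the 73 were higher in E1, against 58.8% of all genes. In 22 of them every E1 array lay above every control array, and in 1 every E1 array lay below, against 2.11% and 1.62% of all genes. Within slide 2 their median reached 0.17, against -0.04 over all genes, and 52 of the 73 were higher, against 40.7% of all genes. Under the replicate block 3 of the 73 rose in the fit of 15 arrays, and 24 rose and 1 fell in the fit of 10 arrays. Of all 26121 genes 4 rose in the fit of 15 arrays, and 2458 rose and 745 fell in the fit of 10 arrays.

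Fos, which pairs with Jun proteins to form AP-1, had levels of -2.65, -2.27, -1.88, -2.42 and -1.91 in controls 1 to 5 and -0.47, -1.05, -0.46, -1.22 and -0.57 in E1 replicates 1 to 5. The lowest E1 array was above the highest control. Fos rose by 1.47 (SE 0.25, adjusted p = 0.0351), and on slide 2 the difference was 1.25. Its call was lost in 10 of the 15 fits without 1 array (adjusted p up to 0.112) and kept without E1 2, ELF 2, ELF 3, ELF 4 or control 5. Its adjusted p was 0.0542 with the replicate block in the fit of 15 arrays.

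Egr2, a zinc finger transcription factor, had levels of -2.07, -1.68, -1.72, -1.80 and -1.33 in controls 1 to 5 and -0.13, -0.58, -0.11, -0.92 and -0.75 in E1. It rose by 1.22 (SE 0.20, adjusted p = 0.0319), and control 5 was the highest control. Junb, a partner of Fos, rose by 0.88 (SE 0.15, adjusted p = 0.0351) from 3.34 ± 0.10 to 4.22 ± 0.16 (SD, n = 5 each). Nr4a1, an orphan nuclear receptor, rose by 0.88 (SE 0.13, adjusted p = 0.0162), with control 5 at 3.34 and the other controls between 2.78 and 3.12. In none of these genes did the groups overlap. Ier2, an early gene whose product is found in the nucleus, rose by 0.85 (SE 0.12, adjusted p = 0.0105), though a second probe of Ier2 differed by 0.07 (SE 0.29). Axud1, now Csrnp1, rose by 0.78 (SE 0.09, adjusted p = 0.00312), and its other probes differed by 0.52 and 0.83. Averaged over their probes, Axud1, Ier2 and Junb lost their calls, with differences of 0.71, 0.46 and 0.84 (adjusted p = 0.0852, 0.246 and 0.0592). Ier2 also missed with normexp (adjusted p = 0.0532). Without 1 array, Egr2 was called only when that array was E1 4, ELF 2, ELF 3, ELF 4 or control 5 (adjusted p up to 0.113). Junb missed in 10 of these 15 fits (up to 0.123), Nr4a1 in 5 (without control 1 to 4 or E1 3, up to 0.0661) and Ier2 in 1 (without control 2, 0.0509). Adjusted p-values of Egr2, Junb, Nr4a1 and Ier2 were 0.0558, 0.0558, 0.0513 and 0.0513 with the replicate block in the fit of 15 arrays.

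The other 26 transcription factors of the list did not pass. Of these Tiparp differed by 0.58 (adjusted p = 0.0513), Btg2, an antiproliferative gene, by 0.56 (0.0652) and Atf3, a stress-induced factor, by 0.53 (0.0966), each without overlap. Their slide 2 differences were 0.53, 0.59 and 0.12. Egr1, a relative of Egr2, had levels between 2.56 and 2.78 in controls and between 3.05 and 3.59 in E1, with no overlap and a difference of 0.61 (SE 0.16, adjusted p = 0.105). Egr4 differed by 0.59 (adjusted p = 0.13), also without overlap. Npas4, a factor that answers to calcium in neurons, differed by 0.73 (SE 0.24, adjusted p = 0.193), and the groups overlapped. E1 2 was the lowest E1 array for Npas4 at -2.18, within the control range of -2.52 to -1.84. Fosb differed by 0.12 (adjusted p = 0.864), a value whose sign changed under other processing. Tiparp, Btg2, Atf3, Egr1 and Egr4 were among the 3203 genes that passed in the fit of 10 arrays with the replicate block (adjusted p = 0.0185, 0.0262, 0.0246, 0.024 and 0.0153). Npas4 was not (0.0574).

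Among effectors, Arc encodes a protein of the postsynapse that takes part in AMPA receptor traffic, and its probe lies at chr15:74749717-74749776 of mm7. The 5 control levels lay between 2.76 and 2.87. Its E1 levels were 4.10, 3.83, 4.37, 3.88 and 3.78 in replicates 1 to 5. Arc rose by 1.16 (SE 0.16, adjusted p = 0.00968). Its difference on slide 2 was 1.23, and control 5 lay with the other controls. Trib1, a pseudokinase, rose by 0.81 (SE 0.12, adjusted p = 0.0162), and its E1 levels lay between -0.61 and -0.44 against -1.46 to -1.19 in controls. Without E1 3, E1 4, E1 5, control 2 or control 3 Trib1 missed the threshold (adjusted p up to 0.0706), and with the replicate block in the fit of 15 arrays its adjusted p was 0.0542. The other 24 effectors did not pass. Cyr61 (now Ccn1), a secreted matrix protein, differed by 0.85 (adjusted p = 0.0574), and Gadd45g, a stress-response protein, by 0.49 (0.0725). Rrad, a small GTPase, differed by 0.74 (0.0726), with 0.08 on slide 2. Nptx2, a secreted synaptic protein, differed by 0.64 (0.0868). Bdnf, a neurotrophin, differed by 0.38 (0.0981), with all 5 E1 arrays above the controls. Homer1, a postsynaptic scaffold, differed by 0.02 (0.962), and its sign changed under other processing. In the fit of 10 arrays with the replicate block Cyr61, Gadd45g, Rrad and Nptx2 were among the 3203 genes that passed (adjusted p = 0.0186, 0.0179, 0.0173 and 0.0285).

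Dusp1, a phosphatase that switches off MAP kinases, was the feedback regulator that rose. Its control levels were 0.19, 0.06, 0.09, 0.02 and 0.10 in replicates 1 to 5. Its E1 levels were 1.09, 0.74, 1.10, 0.63 and 0.97. The controls lay close together and all E1 arrays lay above them. Dusp1 rose by 0.81 (SE 0.11, adjusted p = 0.00968), and the difference on slide 2 was 0.88. Of the 14 feedback regulators that did not pass, Nfkbia, which is also on the glucocorticoid list, differed by 0.64 (adjusted p = 0.0513). Dusp6 and Dusp4, phosphatases of the same family as Dusp1, differed by 0.24 and 0.31 (0.325 and 0.371), and Errfi1, an inhibitor of growth factor receptors, by 0.15 (0.44). Dyrk3, a kinase on none of the lists, rose by 0.66 (SE 0.09, adjusted p = 0.00968), and its slide 2 difference was 0.73. Its adjusted p was 0.0513 with the replicate block in the fit of 15 arrays.

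**Figure D1:**
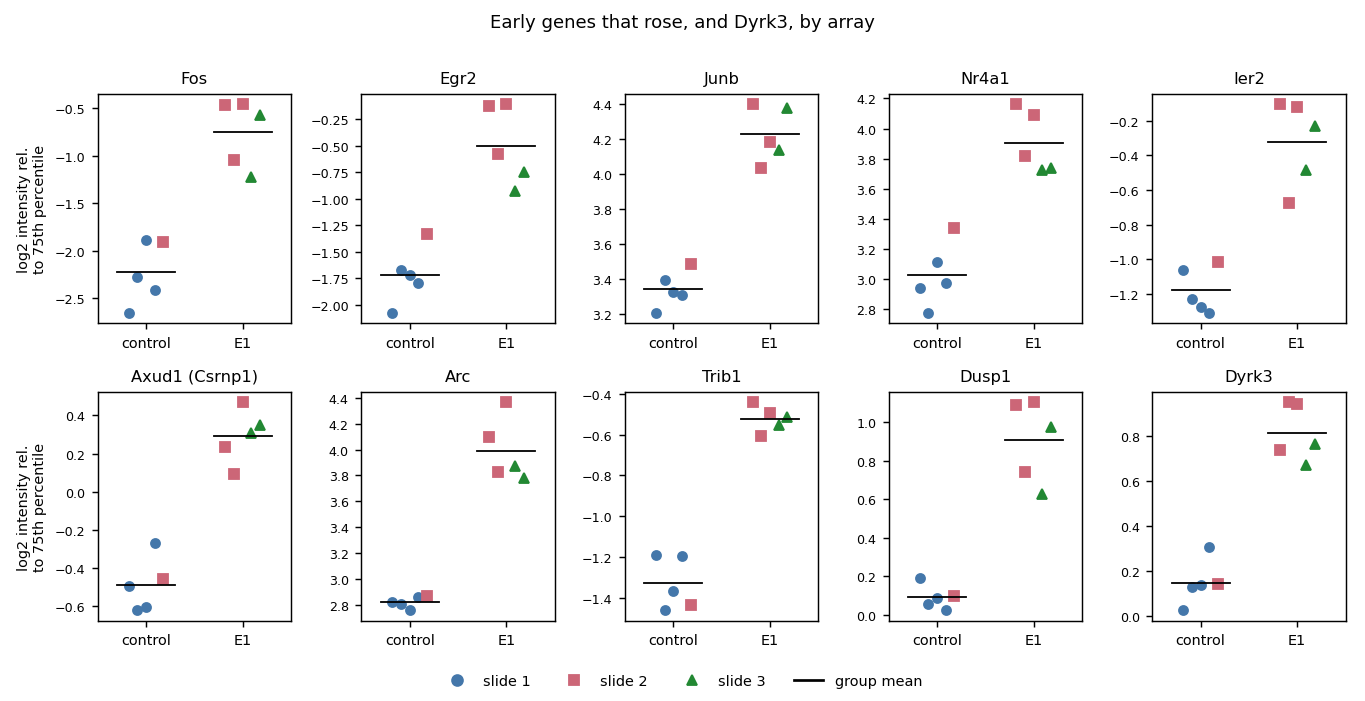
Levels of the 9 early genes that rose and of Dyrk3 in the 5 control and 5 E1 arrays (vertical axis: log2 processed intensity relative to the array's 75th percentile, scaled for each gene; marker shape and colour: slide; line: group mean). For all 10 genes the lowest E1 array lies above the highest control, and the square of control 5 lies below all squares of E1.

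Control 5 shared its slide with E1 arrays, so its place was measured for every called gene on a scale from the mean of controls 1 to 4 (0) to the E1 mean (1). For the 9 early genes it lay between -0.17 and 0.41. For 13 of the 33 genes that rose and had a value in control 5 it lay past 0.5, nearer to E1 than to the other controls. Of the 14 genes that fell, Kdr alone was past 0.5. Control 5 played no part in the fit without it. Of the genes called there it lay past 0.5 for 93% of the 923 that rose and 76.1% of the 197 that fell. These genes were chosen for a difference between controls 1 to 4 and E1, the ends of the scale. A share past 0.5 over all genes is not given, so these shares do not measure how unusual control 5 is.

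**Figure D2:**
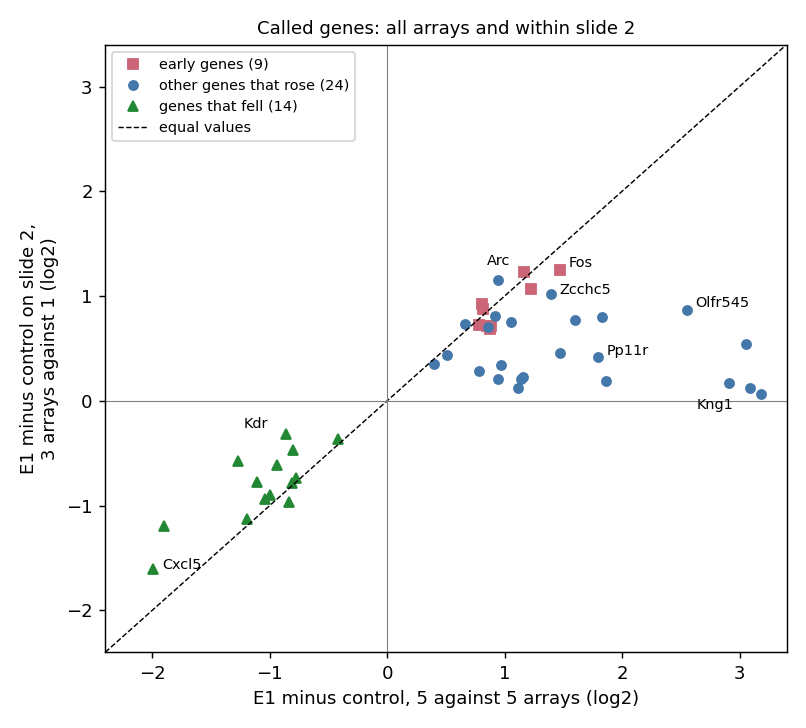
Difference of E1 from control over 5 against 5 arrays (horizontal axis, log2) and on slide 2, 3 E1 arrays against control 5 (vertical axis, log2), for the 47 called genes with a value in control 5. Early genes (squares) lie near the dashed line of equal values, with Fos at 1.47 and 1.25, whereas Kng1 lies at 3.08 and 0.12.

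The 13 genes were Kng1, 4930504O13Rik (now Lypd9), 4931407E12Rik, 1700034G24Rik, A330035P11Rik, Olfr545, Pp11r (now Endou), Clspn, AK078574, 2310016G11Rik, Pfn3, Cdc42ep5 and Mettl4. Their differences ranged from 0.78 to 3.18 over all arrays and from 0.07 to 0.87 on slide 2. Kng1, the precursor of the kinin peptides, had a processed intensity of 4.58, 5.87, 5.20 and 5.25 in controls 1 to 4, 63.5 in control 5 and 59.0 to 85.5 in E1. Control 5 thus lay inside the E1 range. For Kng1, control 5 and all 5 E1 arrays were above background and none of controls 1 to 4 was. The same held for 4930504O13Rik, 4931407E12Rik, 1700034G24Rik and A330035P11Rik, each above background on 1 of 5 controls, and Olfr545 was above it on 1 of 5 controls and 4 of 5 E1 arrays. The sizes of their differences therefore rest on control signals at background. With 1 control array above background each, these genes entered the test through the E1 and ELF arrays on which they were above background. Their calls are thus not independent of the filter of 5 of 15 arrays. On the level scale Kng1 rose by 3.08 (SE 0.57, adjusted p = 0.0489), against 0.12 on slide 2. 4930504O13Rik rose by 3.18 (SE 0.57, adjusted p = 0.0444), with 0.07 on slide 2. 4931407E12Rik rose by 2.91 (SE 0.53, adjusted p = 0.0466), with 0.17 on slide 2. Clspn, a protein of the DNA replication checkpoint, rose by 1.47 (SE 0.23, adjusted p = 0.0202), with 0.46 on slide 2, and was above background on 3 of 5 controls. With normexp the differences of Kng1, 4930504O13Rik, 4931407E12Rik and Clspn were 0.88, 0.82, 0.79 and 0.65, and none passed (adjusted p = 0.114, 0.0518, 0.162 and 0.114). Of the 13 genes Pp11r alone kept its call with normexp. Kng1, 4930504O13Rik and 4931407E12Rik kept their call without control 5 or ELF 4 and lost it without any of the other arrays (adjusted p up to 0.179), and Clspn lost it in 8 of 15 such fits (up to 0.0803). None of the 13 passed with the replicate block in the fit of 15 arrays (adjusted p from 0.0513 to 0.0601). On slides 1 and 3, which hold 1 group each of those compared, slide and group cannot be told apart.

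**Figure D3:**
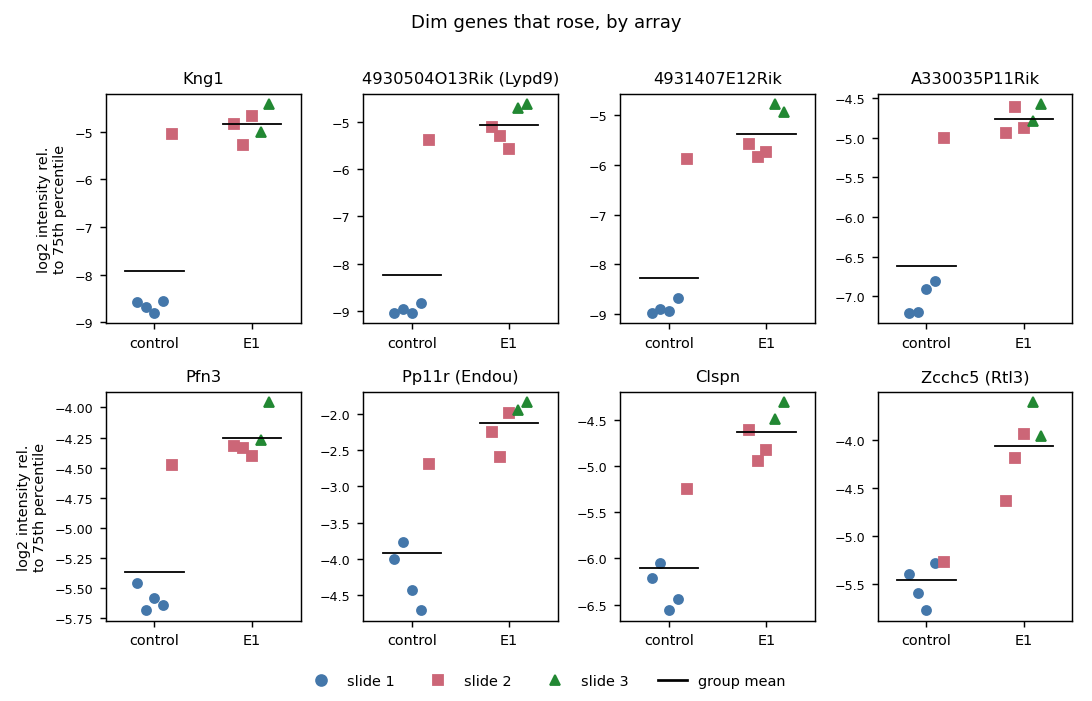
Levels of 8 dim genes that rose, by array (vertical axis: log2 processed intensity relative to the array's 75th percentile, scaled for each gene; marker: slide; line: group mean). In the first 7 genes control 5 (the square among controls) lies nearer to the E1 arrays than to controls 1 to 4, as for Kng1 at -5.06, and in Zcchc5 it lies with the controls at -5.28.

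Of the other genes that rose, Dyrk3, Dbp and Ramp3, described elsewhere, had control 5 at -0.01, 0.07 and 0.18 on that scale. For 8 more control 5 also lay below 0.5, with Ch25h at 0.499, and for another 2 it had no value. AK030494, a transcript named only by its sequence record, rose by 0.94 (SE 0.11, adjusted p = 0.00302), and its slide 2 difference was 1.15. Zcchc5 (now Rtl3) rose by 1.40 (SE 0.20, adjusted p = 0.0111), with 1.02 on slide 2. Abp1 (now Aoc1), an amine oxidase that breaks down histamine, rose by 1.05 (SE 0.14, adjusted p = 0.0105), with 0.75 on slide 2. Zcchc5 and Abp1 missed the threshold without control 2 (adjusted p = 0.0512 and 0.0509). Ch25h, the enzyme that makes 25-hydroxycholesterol, rose by 0.97 (SE 0.16, adjusted p = 0.0351), with 0.34 on slide 2. Nrarp, a target and inhibitor of Notch signalling, rose by 0.51 (adjusted p = 0.0418), and Cenpi, a centromere protein, by 0.40 (adjusted p = 0.0472). Trp53i5 (now Ano9) rose by 1.60 (adjusted p = 0.0351), with 0.77 on slide 2, and was above background on 4 of 5 controls. Ppp1r14d and Myo15, a myosin of hair cells, rose by 1.61 and 1.75 (adjusted p = 0.0246 and 0.0489). Neither has a value in control 5, whose spot was marked as an outlier, and Myo15 was above background on 1 control array alone, so the size of its difference rests on signals at background. Defb6, a defensin, was above background on 0 of 5 controls and 3 of 5 E1 arrays, and was at least 2.12-fold higher in E1 (adjusted p = 0.0419), a bound set against the lowest signal well above background. Defb6 entered the test only through the E1 arrays and 4 ELF arrays on which it was above background. Myo15 was above background on 5 E1 and 4 ELF arrays, and likewise entered through these. Without 1 array, Ch25h and Trp53i5 missed the threshold in 10 of 15 fits, Nrarp and Cenpi in 12, Myo15 and Defb6 in 11 and Ppp1r14d in 7 (adjusted p up to 0.183). With normexp, AK030494 and Zcchc5 kept their calls and the other 8 did not (adjusted p from 0.0771 to 0.207), the differences of Abp1, Trp53i5, Ppp1r14d and Myo15 being 0.60, 0.79, 0.79 and 0.60. AK030494 alone of these 10 passed with the replicate block in the fit of 15 arrays (adjusted p = 0.0255), the others having adjusted p-values of 0.0542 to 0.068.

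The vascular endothelium lines vessels and forms the blood-brain barrier. Of 36 measured genes of these cells 4 fell, against 0.0536% of all genes, none rose and 32 did not pass. In all 32 had a difference below 0, whereas 58.8% of all genes had one above 0. In 10 all 5 E1 arrays lay below the controls, against 1.62% of all genes. The list's median difference was -0.39 against 0.04 for all genes. All members were chosen with earlier results of these data known, and Sox18 and Edn1 with their own results known. Among the other 34 members 2 fell and the median was -0.38, values that are not free of that choice. On slide 2, 30 of the 36 were lower, with a median of -0.13 against -0.04 for all genes. Control 5 was itself lower than the other controls by a median of 0.29 on this list, and without control 1 the list's median was -0.29. Under the replicate block 2 members fell in the fit of 15 arrays and 16 in the fit of 10 arrays. Of all 26121 genes 5 and 745 fell in these fits. In tissue RNA, fewer cells of a type and less RNA per cell cannot be told apart.

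Sox18, a transcription factor of endothelial development, had levels of -0.70, -1.02, -0.85, -1.15 and -1.27 in controls 1 to 5 and -1.88, -2.09, -2.16, -1.97 and -2.42 in E1. It fell by 1.11 (SE 0.13, adjusted p = 0.00312), with -0.78 on slide 2. Cldn5, a tight junction protein of the blood-brain barrier, had levels between 1.42 and 2.13 in controls and between 0.58 and 1.03 in E1. Cldn5 fell by 0.93 (SE 0.14, adjusted p = 0.0197), with -0.62 on slide 2, and control 1 was the highest array. Edn1, the vasoconstrictor peptide endothelin, fell by 1.27 (SE 0.20, adjusted p = 0.0202), with -0.57 on slide 2. Kdr, a receptor for vascular endothelial growth factor, had control levels of 0.47, 0.10, 0.01, -0.22 and -0.50. It fell by 0.86 (SE 0.16, adjusted p = 0.0489), and its slide 2 difference was -0.31, control 5 being the control nearest to the E1 arrays. Kdr stayed called only without control 5, ELF 2 or ELF 4 (adjusted p up to 0.179). Cldn5 missed the threshold without control 2, control 3, E1 3, E1 4 or E1 5 (up to 0.0779), and Edn1 without these or control 4 (up to 0.0756). Cldn5 and Kdr had adjusted p-values of 0.0542 and 0.0558 with the replicate block in the fit of 15 arrays. With normexp Edn1 was at -0.68 (adjusted p = 0.0927) and Kdr at -0.82 (0.0515), both past no threshold.

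Endothelial genes that did not pass included Flt1, a second receptor of that growth factor, which differed by -0.78 (adjusted p = 0.13). Abcb1a, an efflux pump of the barrier, differed by -0.72 (adjusted p = 0.084), Eltd1 (now Adgrl4) by -0.66 (0.0989) and Emcn, a surface sialoprotein, by -0.61 (0.115). In the fit of 10 arrays with the replicate block Flt1, Abcb1a, Eltd1 and Emcn were among the 3203 genes that passed (0.017, 0.0186, 0.0238 and 0.023). Lists of neighbouring vascular and membrane cells held no called gene. The medians were -0.12 for 16 genes of pericytes and vascular smooth muscle, -0.25 for 22 of meninges and fibroblasts, and -0.24 for 26 of choroid plexus and ependyma. At an unadjusted limma p under 0.05 these 3 lists had 1, 5 and 2 lower genes and 3, 0 and 0 higher ones, against 4.04% of all genes lower and 9.08% higher. The slide 2 medians were -0.00, 0.03 and -0.04. Mcam, an adhesion protein of mural cells, differed by -0.27 (adjusted p = 0.119), and Foxd1, a meningeal transcription factor, by -0.52 (0.264). Ttr, the abundant transcript of the choroid plexus, had levels of 4.00 to 4.70 in controls and 3.54 to 4.51 in E1 (adjusted p = 0.927). Igf2, a growth factor made in meninges and choroid plexus, differed by -0.31 (adjusted p = 0.58), and both changed sign with slide as a fixed block. The mean level of the meningeal list ran from -0.65 to 0.24 in controls and from -0.81 to -0.36 in E1, and the part of these cells in the endothelial values was not tested.

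Of 44 chemokine and cytokine genes, chosen with earlier results of these data known, 2 fell, against 0.0536% of all genes, and none rose. Their median difference was 0.01. Cxcl5 attracts neutrophils, and its probe lies at chr5:90732453-90732512 of mm7. Its levels were -3.44, -2.94, -2.66, -3.34 and -3.44 in controls 1 to 5 and -5.13, -4.62, -5.36, -5.61 and -5.07 in E1. It fell by 2.00 (SE 0.20, adjusted p = 0.00227), and on slide 2 the difference was -1.60. Ccl3, a chemokine made by microglia and macrophages, had control levels between -4.42 and -4.14 and E1 levels between -5.18 and -4.86. It fell by 0.78 (SE 0.08, adjusted p = 0.00278), with -0.74 on slide 2. With normexp the difference of Ccl3 was -0.34 (adjusted p = 0.163), past no threshold, whereas Cxcl5 kept its call. Il8rb (now Cxcr2), the receptor of Cxcl5, differed by 1.63 (adjusted p = 0.0747) over all arrays and by -0.07 on slide 2. Cxcl12, a chemokine also made by endothelium, differed by -0.93 (adjusted p = 0.0787), with -0.29 on slide 2, and Ccl7, which attracts monocytes, by 0.98 (0.119), with -0.14 on slide 2. None of 24 microglial genes was called. At an unadjusted limma p under 0.05, 3 of them were higher and 0 lower, against 9.08% and 4.04% of all genes. Trem2, a microglial receptor, differed by 0.28 (adjusted p = 0.307).

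Cxcl5 and Ccl3 were also the genes that differed between the extinction stages. The ELF mean of Cxcl5 was -3.54 ± 0.27 (SD, n = 5), 1.62 above E1 (SE 0.20, adjusted p = 0.0258) and -0.38 from control (adjusted p = 0.268). The ELF mean of Ccl3 was -4.40 ± 0.10 (SD, n = 5), 0.64 above E1 (SE 0.08, adjusted p = 0.0258) and -0.13 from control (adjusted p = 0.355). No other gene passed between ELF and E1. The E1 and ELF comparisons with control share the control arrays. ELF minus E1 uses the same E1 arrays as the calls against control, so it is not independent of those calls. The ELF arrays lay on slides 3 and 4 and the controls on slides 1 and 2. For ELF against control, slide and group thus cannot be told apart. For ELF against E1, slide 3 alone held both groups, with E1 4 and 5 and ELF 3 and 4. On the other slides of these arrays slide and group cannot be told apart, and no difference within slide 3 is given. The ELF differences from control were 0.67 for Fos (adjusted p = 0.139), 0.40 for Arc (0.156) and 0.45 for Dusp1 (0.049). They were -0.85 for Sox18 (0.0174), -0.74 for Cldn5 (0.0285) and -0.98 for Kdr (0.0196), and the median of the endothelial list was -0.65.

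Eomes and Ebf3, transcription factors of developing neurons, fell. Eomes marks intermediate progenitors in the dentate gyrus, where neurons are born in adults. Its levels were between -3.99 and -3.82 in controls and between -4.96 and -4.48 in E1, and it fell by 0.84 (SE 0.12, adjusted p = 0.0131), with -0.97 on slide 2. It missed the threshold without control 1 or control 2 (adjusted p up to 0.054). Ebf3 fell by 1.04 (SE 0.17, adjusted p = 0.0285), with -0.94 on slide 2, while its other probe differed by 0.08 (SE 0.53). Of 39 genes of neurogenesis and proliferation these 2 fell and Clspn rose, with a median of 0.02. Of all genes 0.0536% fell and 0.134% rose, but the list was chosen with earlier results of these data known. Top2a, a marker of dividing cells, differed by 0.97 (adjusted p = 0.0784), with -0.04 on slide 2, and Cdt1, a replication licensing factor, by 0.34 (adjusted p = 0.135). Tubb3, a tubulin of young neurons, differed by 0.31 (0.165), with 0.00 on slide 2. Other genes that fell were Sln, a small inhibitor of the calcium pump, by 1.19 (adjusted p = 0.0398; other probe -0.51), and 9430085L16Rik, by 1.9 (adjusted p = 0.0398). AK047735, LOC620583, AK044847 and 2900052L18Rik fell by 1.00, 0.81, 0.80 and 0.42 (adjusted p = 0.0202, 0.0308, 0.0419 and 0.0489), with slide 2 differences of -0.90, -0.78, -0.47 and -0.36. Without 1 array Ebf3 missed in 8 of 15 fits (adjusted p up to 0.0963), Sln in 10 (up to 0.122), 9430085L16Rik in 11 (up to 0.134), and AK047735, LOC620583, AK044847 and 2900052L18Rik in 4, 8, 12 and 12 (up to 0.161). Averaged over their probes Ebf3 was at -0.48 (adjusted p = 0.541) and Sln at -0.85 (0.103), and with normexp Eomes was at -0.41 (0.254), all past no threshold. Normexp also ended the calls of AK047735, AK044847 and 2900052L18Rik (0.0823, 0.325 and 0.0823). Eomes kept its call with the replicate block in the fit of 15 arrays (adjusted p = 0.0421). The others, Ebf3, Sln, 9430085L16Rik, AK047735, LOC620583, AK044847 and 2900052L18Rik, lost theirs (0.0542, 0.0612, 0.0601, 0.0558, 0.0601, 0.0558 and 0.0707).

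**Figure D4:**
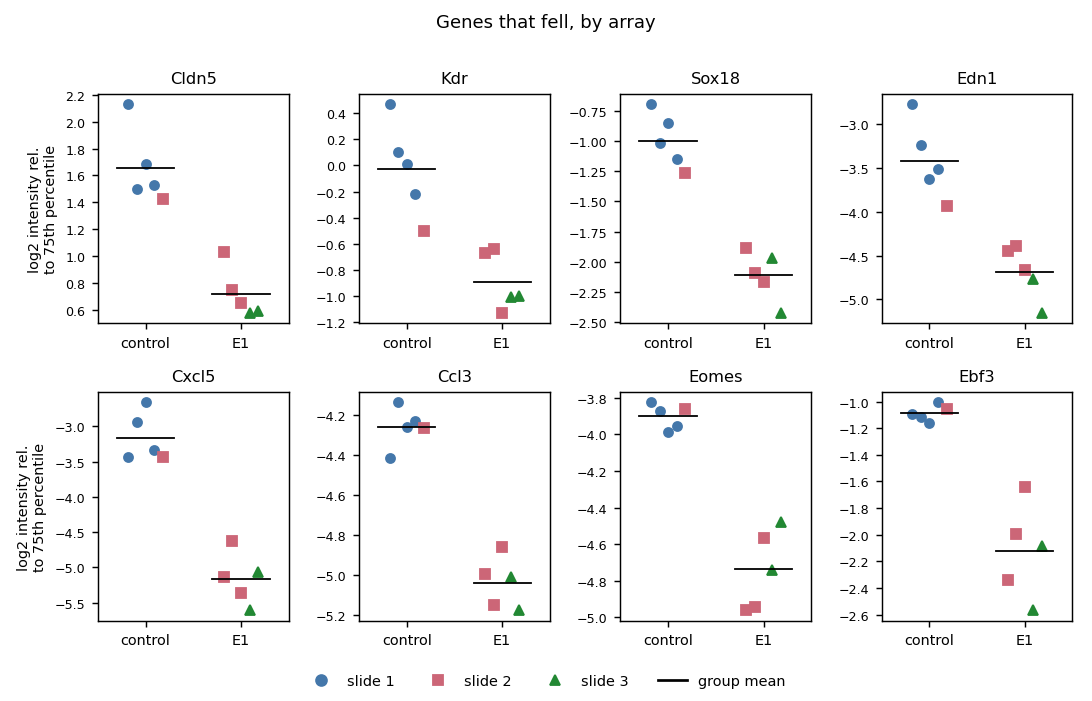
Levels of 8 genes that fell, by array (vertical axis: log2 processed intensity relative to the array's 75th percentile, scaled for each gene; marker: slide; line: group mean). Control 5 lies with the other controls in Cxcl5, Ccl3, Eomes and Ebf3, and is the lowest control in Cldn5, Kdr, Sox18 and Edn1.

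Genes that answer to glucocorticoids had a median difference of 0.21 over 29 members, of which 1, Dusp1, rose, and 5 of the 29 are also on an early list. All genes had a median of 0.04, and 0.134% of them rose. On slide 2 the median was 0.16. Nfkbia, the inhibitor of NF-kappa-B, differed by 0.64 (adjusted p = 0.0513), Sgk (now Sgk1), a kinase, by 0.54 (0.0516) and Ddit4, an inhibitor of mTOR, by 0.49 (0.0513). For all 3 the E1 arrays lay above the controls, and all passed in the fit of 10 arrays with the replicate block (0.0207, 0.0243 and 0.0159). In that fit 8 of the 29 rose, against 2458 of all 26121 genes. Fkbp5, a co-chaperone of the receptor and a classical target, differed by 0.17 (adjusted p = 0.645), with -0.16 on slide 2. Dbp, an output factor of the circadian clock, had levels between 2.69 and 3.11 in controls and between 3.50 and 4.03 in E1. It rose by 0.92 (SE 0.16, adjusted p = 0.0351), with 0.81 on slide 2, and missed the threshold in 11 of 15 fits without 1 array (adjusted p up to 0.134). It was the member of 22 clock genes that rose, and their median was 0.09. Per1, a core clock repressor, differed by 0.42 (adjusted p = 0.0554), Bhlhb2 (now Bhlhe40) by 0.38 (0.111) and Gm129 (now Ciart) by 0.70 (0.115). Arntl, a core activator of the clock, differed by -0.26 (0.171), with -0.50 on slide 2. At an unadjusted limma p under 0.05 the list had 5 higher and 4 lower genes, against 9.08% and 4.04% of all genes. Dbp had an adjusted p of 0.0601 with the replicate block in the fit of 15 arrays.

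Ramp3, a partner of calcitonin-type receptors, rose by 0.86 (SE 0.15, adjusted p = 0.0351), with levels between -1.29 and -1.04 in controls and -0.18, -0.81, -0.01, -0.16 and -0.39 in E1. It was listed as a gene of thalamus and habenula, which border the hippocampus. Of 22 such genes 1 rose, against 0.134% of all genes, and 18 were higher, against 58.8%. Their median was 0.21, and 0.12 on slide 2. Tnnt1 had E1 levels of 0.37, -1.44, 0.04, 0.50 and -1.20 against -2.08 to -1.73 in controls, a difference of 1.58 (SE 0.32, adjusted p = 0.0554). E1 2 was the lowest E1 array for Ramp3, Tnnt1, Rgs16 and Synpo2. Rgs16 differed by 0.68 (adjusted p = 0.0613) and Synpo2 by 0.96 (adjusted p = 0.0816). Gpr151, a receptor of the habenula, differed by 0.77 (0.184), with -0.05 on slide 2. The mean level of the list ran from -0.82 to -0.65 in controls and from -0.64 to -0.22 in E1, and its part in the early gene values was not tested. Ramp3 missed the threshold in 11 of 15 fits without 1 array (adjusted p up to 0.134), and its adjusted p was 0.0633 with the replicate block in the fit of 15 arrays.

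No gene was called among 36 hippocampal subfield genes, 38 of glutamate receptors and the postsynaptic scaffold, 29 of GABA receptors and interneurons, or 44 of plasticity kinases and the CREB pathway. At an unadjusted limma p under 0.05 they had 3, 2, 1 and 4 higher genes and 4, 0, 0 and 1 lower ones. Of all genes 9.08% were higher and 4.04% lower at that p. Their medians lay between 0.00 and 0.07. The subfield genes with the smallest p were 6330514A18Rik (now Plk5), Tdo2, Cacng5 and Map3k15, with differences of -0.39, 0.59, -0.33 and -0.29 (adjusted p from 0.137 to 0.235). Grm4, a metabotropic glutamate receptor, differed by 0.56 (0.168), the receptor kinase Erbb4 by 0.55 (0.367) and Ppp1r1b, an inhibitor of protein phosphatase, by 0.39 (0.262), and on slide 2 these were 0.04, -0.16 and -0.09. Lists of astrocytes, oligodendrocytes, interferon response, chaperones, neuropeptides, chromatin modifiers, insulin-like growth factors, striatum and cortex, and blood cells also held no called gene (limma). In that order they held 22, 24, 31, 31, 41, 36, 17, 19 and 17 measured genes. Higher at an unadjusted limma p under 0.05 were 4, 0, 0, 3, 7, 0, 1, 4 and 0 of these. Lower at that p were 1, 1, 1, 0, 3, 3, 1, 0 and 0. The shares of all genes were 9.08% and 4.04%. Aldh1l1, an astrocyte enzyme, differed by 0.31 (adjusted p = 0.214), Atf4, a stress-response factor, by 0.26 (0.105), Trh, a neuropeptide, by 0.70 (0.159) and Igfbp1, a growth factor binding protein, by 0.47 (0.132).

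Most genes of the protein and energy machinery were slightly higher without any call. Higher in E1 were 42 of 48 ribosomal protein genes, 43 of 49 of oxidative phosphorylation and 27 of 31 of the proteasome, against 58.8% of all genes. Their medians were 0.08, 0.12 and 0.12, and on slide 2 they were -0.07, -0.01 and 0.05. At an unadjusted limma p under 0.05, 2, 3 and 6 of them were higher and none lower, against 9.08% and 4.04% of all genes. Examples are Atp5d, a subunit of ATP synthase, with 0.35 (adjusted p = 0.136) and the proteasome subunit Psmb7 with 0.23 (0.177). Actb, a common reference gene, differed by 0.23 (adjusted p = 0.622), and the design name LOC380687, which matches Gapdh and may share probes with its near-identical copies, by 0.05 (adjusted p = 0.929).

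**Figure D5:**
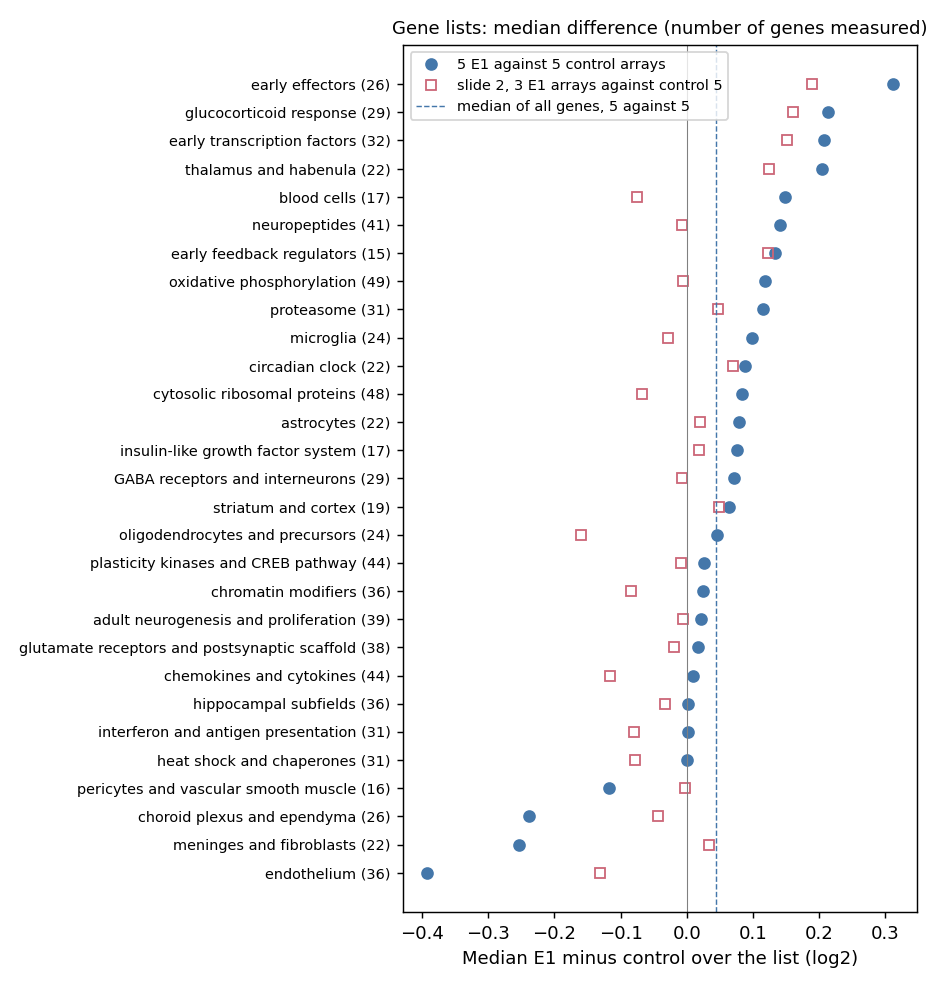
Median difference of E1 from control for each gene list (horizontal axis, log2; number of genes measured in brackets) over 5 against 5 arrays (circles) and on slide 2 (open squares), with the median of all genes, 0.04, as a dashed line. Early effectors are highest at 0.31 and the endothelium lowest at -0.39, and on slide 2 the endothelium lies at -0.13.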

How the data were processed

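Total RNA was isolated with TRIzol, amplified and labelled with Cy3, per the labels' protocols, and hybridised to 1-colour Agilent arrays of 45018 spots, 1 array per sample. Per the file headers, Agilent Feature Extraction 9.5.3.1 gave each spot a background-subtracted, detrended processed intensity and flags of other kinds (well above background, saturated, outlier). The authors' deposited table, an alternative here, holds log2 values with array medians of 8.68 to 8.92, which followed log2 of mean spot intensity (r at least 0.996 per array). How it was centred between arrays stays unknown. Feature Extraction and limma are named in the submitters' processing notes.

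Control spots (1639) and outlier spots were dropped, log2 intensities were taken relative to the array's 75th percentile, and spots of a probe were averaged (41174 probes). Probes well above background on at least 5 of 15 arrays were kept, and for each gene the probe with the highest mean was used (26121 genes). One limma 3.58.1 model in R 4.3.3 (lmFit, eBayes, two-sided) held all 15 arrays in 3 groups without covariates. The script was tested on simulated data. No called gene was saturated on any array. The number of arrays limits the precision.

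The text names every called gene, genes of fixed interest and, from each gene list, called members and up to 4 others with the smallest p. Egr4 and Homer1 lie outside this rule and were chosen after their values were seen. The members and lists were chosen with earlier results of these data known. Probe coordinates are on mm7, per the file headers; promoters are RefSeq GRCm38.p6. Names are those of the array design.

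Replicate numbers of E1 and control were checked for pairing: same-numbered arrays had correlated deviations from their group means (r from 0.14 to 0.30), so a replicate block was fitted. This pairing comes from the data, not from the labels. For ELF and control r ran from -0.43 to 0.31, so the fit of 15 arrays blocks some arrays that are not paired. Alternatives covered background correction, normalization, filters, probe choice, slide, position on the slide and each array left out.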

Additional observations from a re-analysis of the deposited data

Results flagged for a closer look

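In 7 genes control 5 stood apart from the other 4 controls by Dixon's test. These were Kng1 (-5.06, the others -8.79 to -8.55), 4930504O13Rik (-5.39, the others -9.04 to -8.82), 4931407E12Rik (-5.89, the others -8.97 to -8.68), AK078574 (-5.10, the others -6.27 to -6.07), A330035P11Rik (-5.00, the others -7.21 to -6.81), Pfn3 (-4.47, the others -5.68 to -5.45) and Gpr151, an uncalled gene (-4.27, the others -5.49 to -5.15). E1 2 stood apart in 1700034G24Rik (-5.58, the others -4.75 to -4.46). Actb was set apart by control 1 (3.56, the others 2.87 to 3.02) and by E1 5 (3.72, the others 3.13 to 3.25). Of 210 groups tested 10 stood out, and chance gives about 1 in 20.

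Cxcl5 and Ccl3 differed between the extinction stages: ELF minus E1 was 1.62 and 0.64 (limma, both adjusted p = 0.0258), with 5 arrays in each group. The E1 arrays are those of the calls against control, so these differences are not independent of those calls.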

How the results depend on the processing

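The count of called genes, 49 as reported, was 27 with normexp background correction, 446 with quantile normalization, 300 with the median as the shift and 240 with the authors' deposited log2 table. It was 3 with slide as a fixed block, 0 with slide as a random block (591 at an unadjusted limma p under 0.05), 7 with position on the slide as a block, 9 with the replicate block over 15 arrays and 3203 with the replicate block over the 10 arrays. Without single arrays it ran from 8 to 1120. Other filters, the mean over probes and a fit of the 10 arrays alone gave 33 to 64. The share that rose was 71.4% as reported, 82.7% with quantile normalization, 86.7% with the median as the shift, 57.6% in the fit of the 10 arrays alone, 57.1% with the position block, 44.4% with the replicate block over 15 arrays and 0% with slide as a fixed block (3 fell). Of the 49 genes, 43 were called with quantile normalization, 44 with the deposited table, 21 with normexp, 35 with the mean over probes, 24 in the fit of the 10 arrays alone and 7 with the position block. None changed sign in the settings run, Myo15 and Ppp1r14d not being fitted with slide as a fixed block. Only 2 of the 5 controls correlated best with their own number in E1. Uncalled genes that changed sign were Fosb (-0.02 with normexp, -0.01 with slide as a fixed block), Homer1 (-0.02 with the median as the shift and with the deposited table, -0.04 with slide as a random block, and from -0.02 to 0.06 without single arrays, lowest without control 1 and at -0.01 without E1 2) and Top2a (-0.14 with the mean over probes). With slide as a fixed block Top2a was -0.04, Fkbp5 -0.16, Il8rb -0.07, Gpr151 -0.05, Ccl7 -0.14, Ppp1r1b -0.09, Erbb4 -0.16, Igf2 0.09 and Ttr 0.18, and with slide as a random block Ttr was 0.17. The cause was not tested. Signal over background limits the dim genes, and 1 control array limits every value within slide 2.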
